A study of Mus musculus with 2 samples.

Results

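The MEF2 transcription factors and the class IIa histone deacetylases that bind them were described in heart RNA of aged mice. The members were taken by gene name, and they were Mef2a, Mef2b, Mef2c and Mef2d together with Hdac4, Hdac5, Hdac7 and Hdac9, which are 8 of the 55536 Ensembl genes in the gene table. All 8 were matched. Total RNA had been purified from heart tissue of female B6CASTF1/J mice, an F1 cross of C57BL/6J and CAST/EiJ mice, at 18 to 20 months of age. After removal of ribosomal RNA, 300 ng per library were used, and ERCC spike-ins, which are synthetic control RNAs, were added. There was 1 group with biological replicates 1 and 2, no treatment and no second genotype. The labels name separate biosamples but the same donor entry for them, so the spread between the libraries may be technical in part.

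MEF2 proteins are MADS-box transcription factors that bind AT-rich sites in the control regions of muscle genes, and they are needed for the formation of heart muscle. Class IIa deacetylases bind MEF2 at its DNA-binding end, recruit a corepressor complex and silence its targets. Their own deacetylase domain is weakly active in vertebrates. Kinases that respond to calcium or to stress phosphorylate them, 14-3-3 proteins then hold them outside the nucleus, and MEF2 is released. In mouse hearts, this circuit is known for its part in growth of the muscle under load.

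The members share parts of their coding sequence within each family. In the leading transcript of each MEF2 gene, the first 2 coding exons measured 54 and 204 nt, and the DNA-binding part is encoded there. Over these 258 nt, Mef2c and Mef2d were identical at 216 bases, or 83.7%, which was the highest of the 6 pairs, and Mef2a and Mef2b at 193 bases, or 74.8%, which was the lowest. The first coding exon is shown to let the reader see how near the 4 genes are to each other. Capitals mark bases that differ from Mef2a. The exons were read from GENCODE M21 transcripts on build mm10, and each lies on the strand given with its position.
Mef2a, chr7:67316792-67316845, minus strand: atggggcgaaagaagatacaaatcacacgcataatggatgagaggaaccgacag
Mef2c, chr13:83575677-83575730, plus strand: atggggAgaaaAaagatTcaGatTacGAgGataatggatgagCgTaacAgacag
Mef2d, chr3:88155809-88155862, plus strand: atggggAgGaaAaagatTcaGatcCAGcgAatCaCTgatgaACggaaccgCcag
Mef2b, chr8:70164251-70164304, plus strand: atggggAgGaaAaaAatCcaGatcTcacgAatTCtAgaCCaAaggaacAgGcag

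The 4 deacetylase genes shared a run of 8 consecutive coding exons of equal length, 108, 56, 88, 120, 98, 119, 134 and 85 nt. The run lies in the 3′ part of the coding sequence, where the deacetylase domain is encoded, for example at coding bases 2242 to 3049 of 3228 in Hdac4-202. Over these 808 nt, identity ranged from 68.1% between Hdac7 and Hdac9 to 74.4% between Hdac4 and Hdac5. Stretches of 31 nt that also occur in transcripts of another gene on either strand made up 0.0436% of Mef2c, 0.0858% of Hdac7, 0.332% of Hdac9, 1.11% of Hdac5, 2.26% of Mef2b, 5.31% of Mef2a, 8.27% of Mef2d and 21.9% of Hdac4. Nearly all of the Hdac4 stretches were shared with Gm26720, an opposite-strand gene that had 0 TPM in both libraries, and nearly all of the Mef2d stretches with the antisense gene 1700113A16Rik, at 0.08 and 0.10 TPM. On the opposite strand, Lysmd4 (6.95 and 5.93 TPM) overlaps Mef2a and Slc48a1 (23.68 and 22.52 TPM) overlaps the 3′ end of Hdac7. The libraries are labelled as stranded, and whether the counting used strand is not stated in the sources used here.

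The tissue label was checked against marker lists, and the libraries differed in what they carried beside heart muscle. All 5 cardiomyocyte markers were detected, and they summed to 22147 (replicate 1) and 21463 TPM (replicate 2). Of the 5 skeletal muscle markers, Myh2, Myh4 and Myog were at 0 in both libraries, and the list summed to 0.07 and 0.19 TPM. Replicate 2 was higher in all 5 markers of the airway (0.99 and 282 TPM summed), of adipocytes (21.9 and 235 TPM), of B cells (7.02 and 111 TPM), of T cells (1.39 and 8.30 TPM) and of atrial muscle (444 and 1079 TPM). Replicate 1 was higher in all 5 erythroid markers, which summed to 23409 and 11149.9 TPM. Markers of endothelium (168 and 153 TPM), fibroblasts (176 and 191 TPM), mural cells (188 and 169.6 TPM) and macrophages (38.15 and 43.65 TPM) were closer to each other. Depth was 35897521 expected counts in replicate 1 and 36926429 in replicate 2.

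In both libraries, 7 of the 8 members reached 1 TPM, a level that 50.0% of all protein-coding genes reached. All 8 members reached 0.1 TPM, as did 62.6% of those genes, and the same 7 members reached 5 TPM, as did 32.6%. By the kallisto-layout values 7 of 8 members reached 1 TPM, beside 51.1% of genes. TPM is a level scaled by transcript length and library, so it can be set side by side between genes. Mef2a, Mef2d and Hdac5 formed the upper tier, between 45.39 and 53.16 TPM, Mef2c lay below them, and Hdac4, Hdac7 and Hdac9 followed. Mef2b was nearly absent. The median of protein-coding genes detected in both libraries was 8.99 TPM, and Mef2a exceeded 90.1% of them.

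Mef2a (ENSMUSG00000030557.17, chr7:67231163-67372858, minus strand) is the factor whose loss in mice leads to sudden death with mitochondrial defects in the heart, and it had 53.16 (replicate 1) and 50.95 TPM (replicate 2). Mef2d (chr3:88142372-88172086, plus strand), the MEF2 member that is known in mice to mediate stress-dependent remodelling of the heart, had 49.92 and 46.75 TPM. Mef2c (chr13:83504034-83667080, plus strand), the member that mouse embryos need for looping of the heart tube, had 28.49 and 21.96 TPM. The order Mef2a, Mef2d, Mef2c held in both libraries, and the values of neighbours did not overlap, although the gap between Mef2a and Mef2d was narrow. Mef2b (chr8:70139711-70167488, plus strand), a factor best known from germinal centre B cells, had 0.16 and 0.12 TPM, which rest on 5 and 4 expected counts. Mef2b was low in replicate 2 as well, the library with the higher B cell markers.

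The means were 52.1 ± 1.56 TPM for Mef2a, 48.3 ± 2.24 TPM for Mef2d, 25.2 ± 4.62 TPM for Mef2c and 0.14 ± 0.0283 TPM for Mef2b (SD, n = 2 each). Neighbours were called apart where log2(TPM + 0.1) differed in the same direction in both libraries by more than the libraries differed from each other. Mef2d stood above Mef2c by 0.81 and 1.09 on that scale, and Mef2c above Mef2b by 6.78 and 6.65. Mef2a stood above Mef2d by only 0.09 and 0.12, which passed the rule here. In the kallisto-layout table the same differences were -0.05 and 0.13, and the authors' credibility intervals of both genes overlapped in both libraries, so Mef2a and Mef2d were not separated beyond the error of the estimates.

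Hdac5 (chr11:102194432-102230166, minus strand), a repressor of stress-driven growth in mouse hearts, had 48.61 (replicate 1) and 45.39 TPM (replicate 2). Hdac4 (chr1:91928779-92195699, minus strand), the class IIa deacetylase that CaM kinase II docks to, had 12.59 and 16.59 TPM. Hdac7 (chr15:97792664-97844502, minus strand), known for its part in mouse endothelium and thymocytes, had 10.39 and 10.21 TPM. Hdac9 (chr12:34047580-34917095, minus strand), whose loss makes mouse hearts oversensitive to load, had 8.87 and 6.22 TPM. This order held in both libraries without overlap of values, with a wide step below Hdac5 and small steps after it.

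The means were 47.0 ± 2.28 TPM for Hdac5, 14.6 ± 2.83 TPM for Hdac4, 10.3 ± 0.127 TPM for Hdac7 and 7.55 ± 1.87 TPM for Hdac9 (SD, n = 2 each). Hdac5 exceeded Hdac4 by 1.94 and 1.45 on the log2 scale and was called apart from it. Hdac4 against Hdac7 (0.27 and 0.69) and Hdac7 against Hdac9 (0.23 and 0.71) did not differ beyond the spread between libraries. In the kallisto-layout table Hdac7 stood above Hdac9 by 0.36 and 0.56 and was called apart, and Hdac4 was not called apart from Hdac7. Across the families, Mef2d exceeded Hdac5 by 0.04 on average, with overlapping credibility intervals in both libraries, and the authors' posterior means put Hdac5 (48.1 TPM) above Mef2d (47.9 TPM). In the kallisto-layout table Mef2d stood above Hdac5 by 0.55 and 0.43 and was called apart, so the size of this gap depended on the table. Mef2c was not called apart from Hdac4 (1.17 and 0.40).

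Summed over the family, MEF2 factors reached 131.73 and 119.78 TPM and class IIa deacetylases 80.46 and 78.41 TPM. Mef2a held 41.4% ± 1.54, Mef2d 38.5% ± 0.802, Mef2c 20.0% ± 2.33 and Mef2b 0.111% ± 0.0150 of the MEF2 total (SD, n = 2). Hdac5 held 59.2% ± 1.79 of the deacetylase total, against 18.4% ± 3.90 for Hdac4, 12.97% ± 0.0764 for Hdac7 and 9.48% ± 2.19 for Hdac9. The kallisto-layout table gave Hdac5 51.2% of its family and left the order unchanged. Among members above 1 TPM, the level of Hdac5 depended most on the table, since its kallisto-layout mean was 37.5 TPM.

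**Figure D1:**
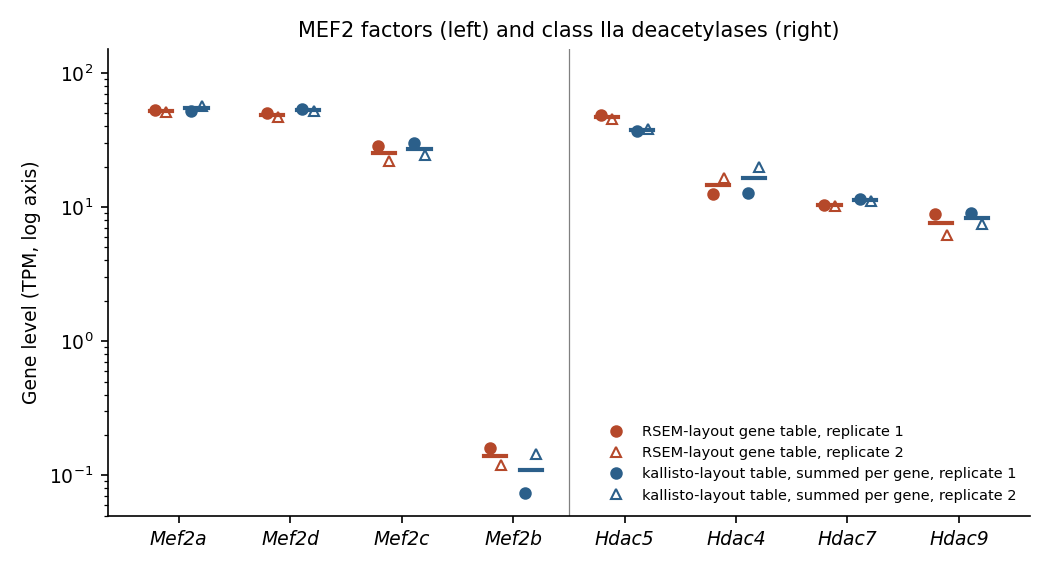
Gene level in TPM (log axis) of the 4 MEF2 factors and the 4 class IIa deacetylases, ordered by mean within each family; circles are replicate 1, triangles replicate 2, short lines the mean, red the RSEM-layout and blue the kallisto-layout table. Mef2a, Mef2d and Hdac5 lie between 45.39 and 53.16 TPM in the RSEM-layout table, and Mef2b at 0.16 and 0.12 TPM.

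No member was 2-fold or more apart between the libraries, where 4.22% of the 12510 genes with a mean of 1 TPM or more were. In TPM, 7 of 8 members were lower in replicate 2, beside 45.7% of those 12510 genes, but only 4 were in the kallisto-layout table. Scaled by library totals, smaller differences exceeded counting error for 4 members. Hdac4 had 1097 expected counts in replicate 1 and 1627 in replicate 2, a ratio of replicate 2 over replicate 1 of 1.44 after division by the library totals (exact binomial 95% interval 1.33 to 1.56). It was the only member with an interval above 1, also when the counts were scaled by edgeR's TMM factors or DESeq2's size factors in place of the totals. Mef2c (0.801, interval 0.754 to 0.850), Hdac9 (0.723, interval 0.653 to 0.799) and Hdac7 (0.898, interval 0.816 to 0.988) were lower in replicate 2. The intervals of Mef2a (1.01), Mef2d (0.992), Hdac5 (0.961) and Mef2b (0.778) included 1 with library totals. This depended on the scaling. With TMM factors, which place the median gene at -0.03 on the log2 scale where library totals place it at 0.06, the intervals of Mef2a (0.917 to 0.985), Mef2d (0.901 to 0.973) and Hdac5 (0.860 to 0.958) lay below 1 too. DESeq2 size factors gave the same 7 members with intervals that left out 1. The intervals hold counting error alone and no other spread between libraries. They may be too narrow for counting error as well, because several reads can stem from 1 molecule.

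With 1 library on each side, no test of these differences was possible. They ran beside the marker differences listed above, and the part of other tissue or cell types in them was not tested. In bulk tissue, fewer cells of a type and less RNA per cell cannot be told apart. All 5 cardiomyocyte markers, for comparison, were lower in replicate 2, by least in Myh6 (8594 and 8547 TPM) and by most in Actc1 (5156 and 4843 TPM, a log2 difference of -0.09).

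**Figure D2:**
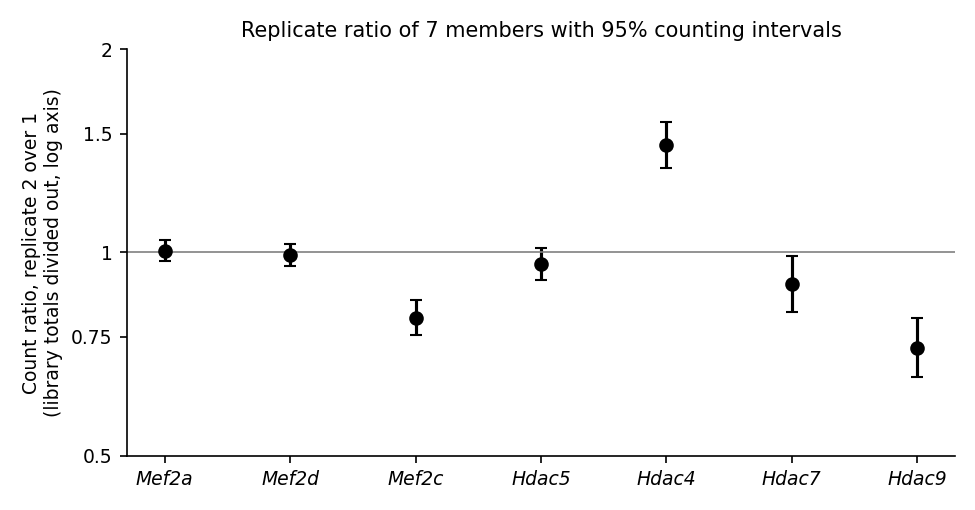
Ratio of expected counts in replicate 2 over replicate 1, after division by library totals (log axis), for the 7 members above 1 TPM; points are ratios and bars exact binomial 95% intervals that cover counting error only. Hdac4 lies above 1 at 1.44, Mef2c, Hdac7 and Hdac9 below it, and the other 3 include 1 at this scaling but lie below it with TMM or DESeq2 factors.

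Each member's TPM was then split by transcript. Both libraries named the same leading transcript for 7 of the 7 members above 1 TPM, as they did for 87.9% of comparable protein-coding genes, and both tables did so for 4 of these 7, beside 77.1%. Protein-coding transcripts carried from 96.2% of TPM in Mef2a to 100% in Mef2b among the MEF2 genes and 96.3% in Hdac9, in the RSEM-layout table, against a median of 92.6% over 10399 comparable genes. In Hdac4, Hdac5 and Hdac7 the protein-coding share was 67.9%, 33.2% and 64.7%. These 3 shares depended on the estimate: the kallisto-layout table gave 83.3%, 45.5% and 80.2%, and expected counts gave 91.9%, 61.1% and 72.5%. Hdac5 was the lowest member by each. The share of Hdac9 moved too, to 90.4% in the kallisto-layout table, where the median over the comparable genes was 90.3%.

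MEF2 genes are known to vary their products through alternative exons. The third coding exon exists in an upstream and a downstream version that lie side by side in the gene and are usually used one at a time. A short exon known as beta adds an acidic stretch. In Mef2c, a segment known as gamma at the start of the last coding exon can be included or spliced out; it is known to hold a phosphorylated serine that represses activity. The shares below are shares of TPM among protein-coding transcripts that cover the exon, at least in part, and they can reflect only the combinations that the annotation holds.

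Versions of the third coding exon are shown because they are the choice the transcripts turned on. Capitals mark the exon, and the 6 bases of neighbouring coding sequence on either side are in lower case.
Mef2a upstream, chr7:67268269-67268400, minus strand: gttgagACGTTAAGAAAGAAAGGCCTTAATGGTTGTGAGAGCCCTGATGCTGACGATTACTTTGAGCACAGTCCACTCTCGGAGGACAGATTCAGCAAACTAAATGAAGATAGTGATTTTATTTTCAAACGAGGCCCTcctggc
Mef2c upstream, chr13:83625265-83625408, plus strand: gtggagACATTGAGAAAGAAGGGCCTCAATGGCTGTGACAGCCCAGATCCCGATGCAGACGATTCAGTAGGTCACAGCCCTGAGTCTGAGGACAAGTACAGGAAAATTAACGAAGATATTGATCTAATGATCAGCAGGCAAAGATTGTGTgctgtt
Mef2c downstream, chr13:83625470-83625607, plus strand: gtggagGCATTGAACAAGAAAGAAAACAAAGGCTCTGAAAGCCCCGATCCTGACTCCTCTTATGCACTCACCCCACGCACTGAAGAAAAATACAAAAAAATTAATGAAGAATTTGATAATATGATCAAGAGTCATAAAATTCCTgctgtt
Mef2d upstream, chr3:88158034-88158171, plus strand: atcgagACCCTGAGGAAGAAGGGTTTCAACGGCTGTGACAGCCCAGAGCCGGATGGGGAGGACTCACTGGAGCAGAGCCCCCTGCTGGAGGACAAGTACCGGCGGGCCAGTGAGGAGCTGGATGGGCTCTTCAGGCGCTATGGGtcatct
Mef2d downstream, chr3:88158221-88158355, plus strand: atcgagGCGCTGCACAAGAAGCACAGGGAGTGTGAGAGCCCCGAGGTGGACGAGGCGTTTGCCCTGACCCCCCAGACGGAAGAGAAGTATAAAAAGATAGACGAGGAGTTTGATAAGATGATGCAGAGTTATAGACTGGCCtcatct

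The beta exons and the gamma segment are shown for the same reason, with 12 bases of neighbouring coding sequence in lower case. The beta exon measures 24 nt in Mef2a and Mef2c and 21 nt in Mef2d, and all 3 keep the reading frame.
Mef2a beta, chr7:67244521-67244544, minus strand: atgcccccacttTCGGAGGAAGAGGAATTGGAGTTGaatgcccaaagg
Mef2c beta, chr13:83654598-83654621, plus strand: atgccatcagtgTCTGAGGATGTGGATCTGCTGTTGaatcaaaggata
Mef2d beta, chr3:88161781-88161801, plus strand: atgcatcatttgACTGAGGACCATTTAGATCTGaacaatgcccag
Mef2c gamma, chr13:83662307-83662402, plus strand: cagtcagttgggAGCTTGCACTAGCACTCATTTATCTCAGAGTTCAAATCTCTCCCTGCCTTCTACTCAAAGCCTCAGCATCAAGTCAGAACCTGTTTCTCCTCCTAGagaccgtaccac

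Mef2a and Mef2d mostly carried the upstream version of the third coding exon. Its share in Mef2a was 78.3% in both libraries, with a kallisto-layout mean of 75.7%. In Mef2d it was 81.1% in replicate 1 and 83.8% in replicate 2, with a kallisto-layout mean of 82.3%. Mef2c was mixed. Its upstream version had 34.5% and 35.3%, its downstream version 56.0% and 39.8%, transcripts with neither had 9.55% and 17.6%, and a transcript with both had 0% and 7.35%. In the kallisto-layout table the upstream version of Mef2c averaged 45.1% and the downstream version 43.3%, so no order between them held across tables and libraries.

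The beta exon separated the 3 genes more clearly. It was included in 74.4% and 74.8% of Mef2a, in 43.3% and 44.3% of Mef2c and in 16.5% and 14.4% of Mef2d. Transcripts that cover beta held 82.0% of all TPM in Mef2a, 60.9% in Mef2c and 97.2% in Mef2d. In Mef2c, those that cover gamma held 60.9% as well. The order Mef2a, Mef2c, Mef2d was the same in both libraries and in the kallisto-layout table, which gave 70.1%, 42.6% and 14.9%. Measured as shares of expected counts, which weigh long transcripts more, inclusion was 87.0% in Mef2a, 59.0% in Mef2c and 6.86% in Mef2d, in the same order. The gamma segment of Mef2c was included in 43.8% and 51.8% by TPM, in 65.2% by the kallisto-layout table and in 41.3% by expected counts, so whether most Mef2c held it depended on the estimate.

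**Figure D3:**
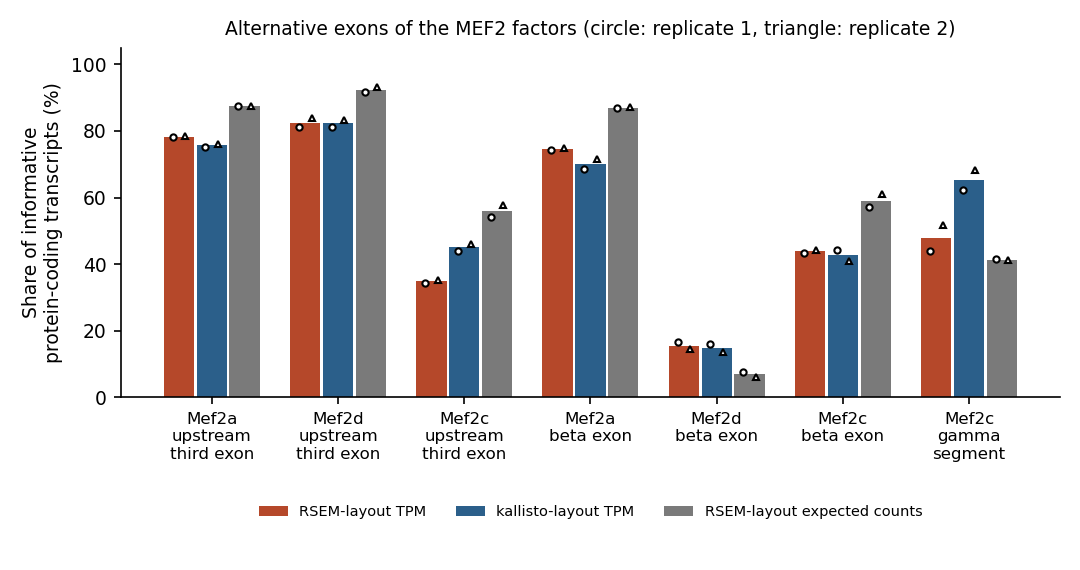
Share (%) of informative protein-coding transcripts that carry the upstream version of the third coding exon, the beta exon or the Mef2c gamma segment; bars are means over 2 libraries by RSEM-layout TPM (red), kallisto-layout TPM (blue) and RSEM-layout expected counts (grey), circles replicate 1 and triangles replicate 2. Beta inclusion is highest in Mef2a at 74.6% and lowest in Mef2d at 15.4% by RSEM-layout TPM.

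By whole transcripts, Mef2a was led by Mef2a-208, which joins the upstream version with beta and had 31.97 and 31.72 TPM, a mean isoform percent of 61.2 (the transcript's share of its gene). Mef2a-201, with the downstream exon and no beta, had 10.99 and 10.70 TPM and an isoform percent of 20.8. The kallisto-layout table gave Mef2a-201 only 3.54% and placed 18.4% on Mef2a-203, which makes the same exon choices and was at 0 in the RSEM-layout table. Mef2a-205, a model with an incomplete 3′ end, had an isoform percent of 14.2 and 3.87% in the kallisto-layout table. Both protein-coding transcripts of Mef2a with the downstream exon are annotated without beta, so no other pairing could be seen. Together they held 21.7% of the protein-coding TPM.

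Mef2d was led by Mef2d-201, with the upstream exon and no beta, at 24.33 and 24.44 TPM and an isoform percent of 50.5. Mef2d-204 makes the same choices with another 3′ end and had 7.17 and 6.92 TPM (14.6%). Mef2d-202 carried the downstream exon without beta, at 9.20 and 7.33 TPM (17.0%), and Mef2d-203 the upstream exon with beta, at 8.06 and 6.49 TPM (15.0%). These are the 4 protein-coding transcripts of Mef2d in the annotation, all 4 were above 10% in both tables, and none joins the downstream exon to beta. A muscle form of Mef2d with that combination is known in mice, and the deposited tables, which follow the annotation, could not show it.

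Mef2c was spread over more of its 31 transcripts, and by TPM no transcript held over 26%. Mef2c-212, with the upstream exon and beta and without gamma, had 7 and 5.59 TPM and an isoform percent of 25.005. This transcript of 6088 nt took 49.8% of the expected counts of the gene. Mef2c-201, with the downstream exon and gamma and without beta, had 4.41 and 1.26 TPM (10.6%), and was the leader in the kallisto-layout table at 19.0%. Mef2c-219, which lacks both versions of the third coding exon, had 2.67 and 3.70 TPM (13.1%). Mef2c-217 (6.60 and 3.83 TPM, 20.3%) and Mef2c-205 (2.23 and 1.20 TPM, 10.5% in the kallisto-layout table) are models with incomplete 3′ ends that stop before beta, and Mef2c-217 stops inside the downstream exon. Mef2c-202, which holds both versions, had 0 and 1.55 TPM, and the lower downstream share of replicate 2 lay in Mef2c-217, Mef2c-201 and Mef2c-230 (2.37 and 1.06 TPM). Mef2c-230 is a model with an incomplete 5′ end that begins at position 83625603. It holds only the last bases of the downstream exon, which ends at 83625607, yet was counted with it. It held 8.48% and 5.03% of the protein-coding TPM.

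Transcripts of Mef2c are also annotated from several starts. Of its protein-coding TPM, transcripts starting between positions 83573607 and 83573625 of chromosome 13 held 33.0% and 32.2%. Those starting between 83524291 and 83524891 held 31.4% and 31.3%, and those at the 5′ edge of the gene, between 83504034 and 83504240, held 15.99% and 13.9%. A further group, between 83575145 and 83575677, held 10.1% and 17.6%, nearly all of it in Mef2c-219 (2.67 and 3.70 TPM). Mef2c-219 holds no sequence before its first coding base at 83575677, so its 5′ end was not read as a start. The kallisto-layout table gave the first region 27.6% and the second 34.0%, so no order between them held across tables. All protein-coding transcripts of Mef2d are annotated from a sole start region. So are those of Mef2a, except Mef2a-210, a model incomplete at both ends. The shares of these genes therefore could not show a choice of starts. Mef2b had all of its few counts on Mef2b-201, but the authors' posterior means gave that transcript only 23.1% and each of the other 4 transcripts between 18.1% and 21.3%. Borcs8, which overlaps Mef2b on the same strand, had 8.68 and 11.08 TPM.

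Among the deacetylases, the protein-coding TPM of Hdac9 lay mostly in short transcripts without the deacetylase exons. These read past the splice site at the end of an exon and stop after 48 further coding nucleotides, as in the form known as MITR, the MEF2-interacting transcription repressor, which binds MEF2 and represses without a deacetylase domain. The bases at the junction are shown because they tell the 2 forms apart. The last 30 shared bases are in lower case, and the extension with its stop codon is in capitals; the extension without the stop codon lies at chr12:34373830-34373877 on the minus strand.
Hdac9 extension: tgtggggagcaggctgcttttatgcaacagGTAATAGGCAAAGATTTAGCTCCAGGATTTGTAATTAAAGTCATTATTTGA

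Transcripts that end there had 7.92 (replicate 1) and 5.23 TPM (replicate 2), and protein-coding transcripts that go on to deacetylase exons had 0.56 and 0.63 TPM. The short form thus held 93.4% and 89.2% of the informative TPM, 92.4% in the kallisto-layout table and 87.2% by expected counts. Informative transcripts held 94.9% of all TPM of the gene in the RSEM-layout table. They leave out Hdac9-210, which is not annotated as protein coding. It was at 0 in the RSEM-layout table but had 0.821 (replicate 1) and 0.19 TPM (replicate 2) in the kallisto-layout table. Hdac9-201 led with 5.86 and 3.68 TPM and an isoform percent of 62.6, and Hdac9-208 had 2.01 and 1.13 TPM (20.4%). The model of Hdac9-208 holds no sequence before its first coding base, so its 5′ end was not read as a start. Both transcripts were lower in replicate 2 in the RSEM-layout table. In the kallisto-layout table Hdac9-201 was lower there (5.73 and 3.63 TPM) and Hdac9-208 was not (1.20 and 1.55 TPM).

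Hdac5 held the highest level of its family, but only a part of it in complete coding transcripts. Retained-intron transcripts, which keep an intron and have no coding sequence in the annotation, made up 54.3% of its TPM in replicate 1 and 53.5% in replicate 2. The kallisto-layout share was 36.1%, and 19.1% of the expected counts fell on them. The median over 10399 comparable genes was 1.44% in the RSEM-layout table, and in 1.61% of them retained-intron transcripts exceeded protein-coding and all other classes together. The leading ones are short, and a short transcript gains more TPM per count.

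Hdac5-211 (12.42 and 11.66 TPM, 25.6%) and Hdac5-217 (9.83 and 8.44 TPM, 19.4%) were the leading retained-intron transcripts, of 754 and 650 nt. The kallisto-layout table gave Hdac5-211 only 1.03%, Hdac5-217 14.6% and another transcript of this class, Hdac5-212, 12.8%. The full-length coding transcripts Hdac5-204 and Hdac5-202 had 8.85 and 7.56 TPM (17.4%) and 7.77 and 5.54 TPM (14.1%). They differ at the start by 3 nucleotides of the second coding exon and at the 3′ end, and in the kallisto-layout table nearly all of their sum fell to Hdac5-204, at 34.2% against 2.66%.

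Hdac5-205 holds an extra exon of 112 nt with a stop codon and is annotated as a target of nonsense-mediated decay, the pathway that destroys mRNAs with early stops. It had 4.05 (replicate 1) and 5.36 TPM (replicate 2), an isoform percent of 10.1, with a kallisto-layout share of 16.9% and 19.3% of the expected counts. The exon is shown as the part that ends the reading frame, at chr11:102213925-102214036 on the minus strand, with the in-frame stop codon in capitals.
Hdac5 stop-codon exon: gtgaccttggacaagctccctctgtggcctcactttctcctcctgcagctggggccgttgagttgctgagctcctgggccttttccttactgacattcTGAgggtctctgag

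Hdac4 was led by the full-length Hdac4-202, at 3.87 (replicate 1) and 5.32 TPM (replicate 2), an isoform percent of 31.4. This transcript of 8100 nt took 77.9% of the expected counts of the gene. The second full-length model, Hdac4-201, had 0.80 and 0.70 TPM (5.30%, and 10.4% in the kallisto-layout table). Much of the remaining TPM lay in short or incomplete models: Hdac4-204, a processed transcript of 407 nt (2.45 and 3.15 TPM), Hdac4-205, which lacks its 3′ end (2.12 and 2.79 TPM), and Hdac4-206, incomplete at both ends (1.93 and 2.25 TPM). Hdac4-208, a processed transcript of 3287 nt below the naming limit, had 0 and 1.08 TPM. Which transcripts were higher in replicate 2 depended on the table. Hdac4-202 was higher there in both tables, but in the kallisto-layout table Hdac4-205 was lower (3.94 and 3.598 TPM), Hdac4-201 was higher (1.43 and 1.90 TPM) and Hdac4-204 was at 0.

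The leading transcript of Hdac7 held the smallest share among the members in the RSEM-layout table. Hdac7-211, a retained-intron transcript, had 2.45 (replicate 1) and 2.16 TPM (replicate 2) (22.4%, and 9.98% in the kallisto-layout table). The full-length transcripts Hdac7-202 (2.16 and 1.49 TPM, 17.7%), Hdac7-204 (1.76 and 1.65 TPM, 16.6%) and Hdac7-201 (0.95 and 1.33 TPM, 11.1%) followed, and Hdac7-202 led the kallisto-layout table at 27.4%. Hdac7-209, a model incomplete at both ends, had 0.89 and 1.91 TPM (13.7%). Retained-intron transcripts together held 30.4% and 27.4%, and 16.4% in the kallisto-layout table.

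**Figure D4:**
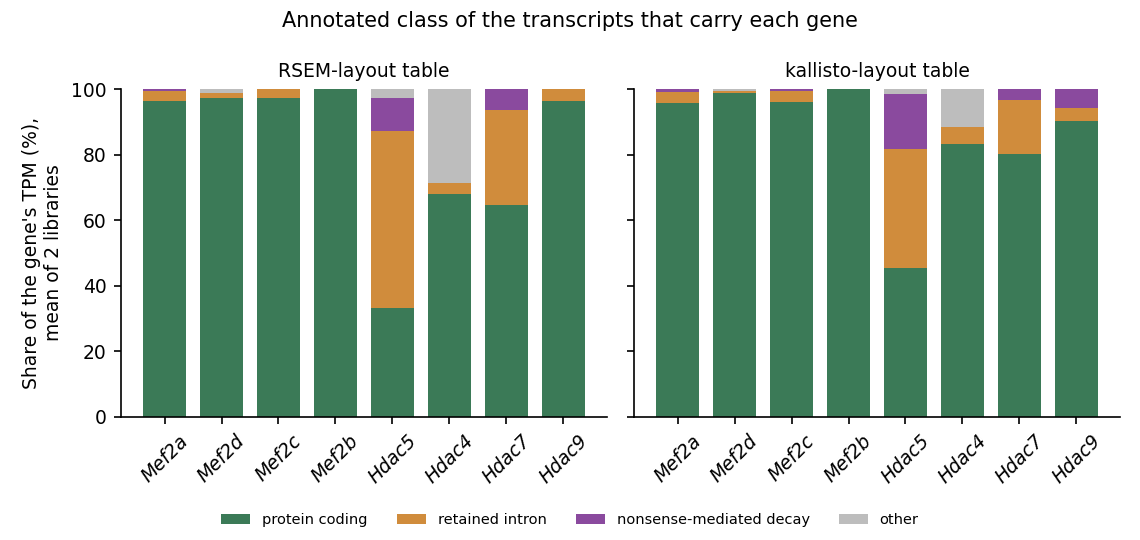
Share (%) of each gene's TPM by the annotated class of its transcripts, as means over 2 libraries, in the RSEM-layout (left) and the kallisto-layout table (right). Retained-intron transcripts hold 53.9% of Hdac5 in the RSEM-layout table and 36.1% in the kallisto-layout table, and the MEF2 genes are nearly all protein coding in both.

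Counting only protein-coding transcripts that hold the shared run of 8 exons, the deacetylase family looked different from its gene totals. Hdac5 had 16.66 (replicate 1) and 13.98 TPM (replicate 2), Hdac4 had 4.67 and 6.02 TPM, and Hdac7 had 5.58 and 4.71 TPM. Hdac9 had 0.56 and 0.63 TPM. Hdac5 stayed first and Hdac9 last in both libraries and in the kallisto-layout table, and the values of Hdac4 and Hdac7 overlapped. This measure leaves out incomplete models such as Hdac4-206, so it may understate them. The means were 15.3 ± 1.90 TPM for Hdac5, 5.35 ± 0.955 TPM for Hdac4, 5.15 ± 0.615 TPM for Hdac7 and 0.595 ± 0.0495 TPM for Hdac9 (SD, n = 2 each), or 32.5%, 36.7%, 49.97% and 8.22% of the gene's TPM.

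**Figure D5:**
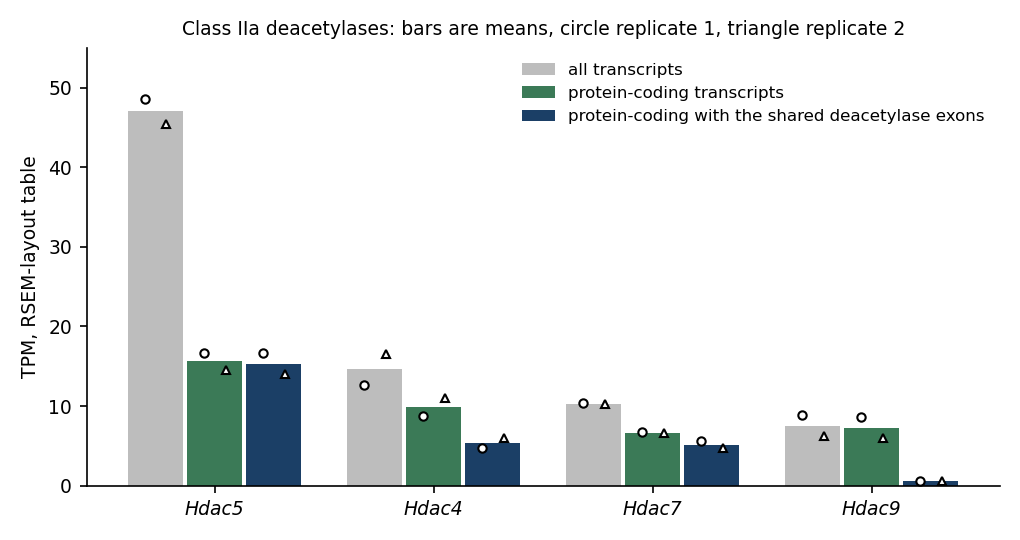
TPM of the class IIa deacetylases in the RSEM-layout table, over all transcripts (grey), protein-coding transcripts (green) and protein-coding transcripts with the shared run of deacetylase exons (blue); bars are means over 2 libraries, circles replicate 1 and triangles replicate 2. Hdac5 falls to 15.3 TPM and Hdac9 to 0.595 TPM when only transcripts with the run are counted.

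A MEF2 binding site in a gene's own promoter was looked for, since MEF2 factors are known in mice to act on Mef2c and Hdac9. The site is named here by the MEF2 consensus alone, a palindrome that reads the same on both strands. Windows from RefSeq (build GRCm38.p6) of 300 bases, 250 before and 50 after each annotated start, held it in 3.19% of 32851 windows. Of the 14 windows of the 8 members it was found in 2, those of Mef2a and Hdac5. Both are shown with 10 flanking bases on either side in lower case and the match in capitals; the match lies at chr7:67372851-67372860 and at chr11:102230183-102230192, both on the minus strand. In Mef2a the match begins 2 bases before the annotated start and runs across it. In Hdac5 it begins 20 bases before the start. A match is a description of letters and not a measured site.
Mef2a promoter: ggcctgactcCTAAAAATAGccccggtgtg
Hdac5 promoter: gggtctgagcCTATTTTTAGctcggggtcg

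The other genes of the circuit were read from lists, each given by its count at 1 TPM or more in both libraries and by its median, beside 50.0% and 8.99 TPM for protein-coding genes. The kinases known to phosphorylate class IIa deacetylases numbered 19 of 22, with a median of 14.3 TPM. That list goes by phosphorylation alone and does not sort the kinases by whether they move deacetylases out of the nucleus. Prkaca, the catalytic subunit of protein kinase A, led at 123 ± 5.66 TPM, followed by the CaM kinase II gene Camk2d at 50.1 ± 1.61 TPM and the AMP-activated kinase gene Prkaa2 at 33.2 ± 2.85 TPM. Camk1g was lowest at 0.07 ± 0.0141 TPM. Of the 14-3-3 genes, whose proteins hold phosphorylated deacetylases in the cytoplasm, 6 of 7 were detected, with a median of 34.6 TPM. Ywhae (209 ± 6.04 TPM), Ywhag (112 ± 1.04 TPM) and Ywhaz (53.8 ± 0.431 TPM) were highest, and Sfn was lowest at 0.645 ± 0.120 TPM.

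All 5 genes of the corepressor complex described here were detected, with a median of 15.2 TPM. The scaffold gene Ncor1 had 52.4 ± 4.26 TPM, the exchange factor gene Tbl1xr1 24.1 ± 0.573 TPM, and Hdac3, the catalytic deacetylase of the complex, 15.2 ± 0.460 TPM. Gps2 was lowest at 9.89 ± 1.16 TPM. All 19 of the other proteins known to bind MEF2 or class IIa deacetylases were detected, with a median of 21.8 TPM. Ctbp1, a corepressor, led at 82.1 ± 2.63 TPM, then Tead1, a factor of the Hippo pathway, at 64.0 ± 6.87 TPM and, by the mean, Gata4, a cardiac zinc finger factor, at 44.7 ± 15.9 TPM. In replicate 2 Gata4 (33.47 TPM) lay below Srf (36.40 TPM), a MADS-box factor. The lowest was Mapk7, the kinase ERK5 that activates MEF2, at 2.16 ± 0.262 TPM.

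The remaining deacetylases gave a scale for the class IIa members. All 7 of classes I, IIb and IV were detected, with a median of 5.73 TPM, and Hdac2 (19.9 ± 0.615 TPM), Hdac3 (15.2 ± 0.460 TPM) and Hdac11 (7.89 ± 0.311 TPM) were highest, with Hdac8 lowest at 1.31 ± 0.0141 TPM. The gene level of Hdac5 was above each of these in both libraries. Its protein-coding transcripts alone had 16.66 and 14.56 TPM, below the gene level of Hdac2 (19.42 and 20.29 TPM). Protein-coding levels of these 7 genes were not computed. All 7 sirtuins, deacetylases that use NAD, were detected, with a median of 6.82 TPM, led by Sirt2 (33.1 ± 1.78 TPM), Sirt3 (24.9 ± 1.25 TPM) and Sirt5 (24.9 ± 3.63 TPM), with Sirt6 lowest at 2.40 ± 0.290 TPM. All 13 genes known as MEF2 targets were detected, with a median of 136 TPM, from the contractile genes Myh6 (8570 ± 33.4 TPM) and Actc1 (4999.7 ± 221 TPM) and the creatine kinase gene Ckm (1504 ± 63.5 TPM) down to Nr4a1, an immediate early gene, at 3.22 ± 0.339 TPM (SD, n = 2 throughout). That list was chosen from muscle and signal-responsive genes and holds Hdac9 itself.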

How the data were processed

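Total RNA-seq tables of 2 heart libraries of 1 group were used. Per the deposited readme, all refer to mm10 and GENCODE M21. The gene table and a transcript table come from transcriptome alignments, with columns laid out as RSEM does, per the file headers. A further transcript table comes from the read file and an index, with columns laid out as kallisto does. No program or version is given in the sources used here. The expected counts deposited by the authors are estimated reads, split where a read fits several genes. The TPM values deposited by the authors are scaled over all rows of a table. The authors' isoform percent states how much of a gene's TPM falls on a transcript. The interval bounds and the lengths, columns treated as a score here, were deposited by the authors, and the bounds are credibility bounds of the posterior TPM. Annotated length exceeded effective length by 99 nt in the RSEM-layout tables and by 325 and 322 nt in the kallisto-layout tables, which bears on the TPM of short transcripts.

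From these, means and SDs over 2 libraries, log2(TPM + 0.1) ratios, which understate the change of low genes, and transcript shares were computed. Transcripts were put in exon classes from the annotation's coding exons, and sequences came from its transcripts. No program was run on the reads. The members and lists were chosen with earlier results of these data known. All 8 members, transcripts with a mean isoform percent of 10 or more in either table, and the highest 3 and lowest 1 genes of each pathway list, with genes at 0 in both libraries, are named; a few transcripts below that limit were named after their values were seen. Marker lists are given by sums. With 1 group there was no contrast and no test. Rounded expected counts were also scaled by edgeR 4.0.16 (TMM) and DESeq2 1.42.0 size factors. That step was tested on simulated data with known large changes, as many up as down. Such data could not tell which scaling suits these libraries. Expected counts summed to 35897521 and 36926429, and at that depth a count of 0 allows up to 3 counts. Proteins were not compared, since only nucleotide sequences were used here. A gene of the corepressor list and an exon sequence are not reported here.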

Additional observations from a re-analysis of the deposited data

How the results depend on the processing

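No paired analysis was possible because there was 1 group. Leaving out a library gave the other library's value, which for the levels meant 50.95 to 53.16 TPM for Mef2a, 46.75 to 49.92 for Mef2d, 21.96 to 28.49 for Mef2c, 0.12 to 0.16 for Mef2b, 45.39 to 48.61 for Hdac5, 12.59 to 16.59 for Hdac4, 10.21 to 10.39 for Hdac7 and 6.22 to 8.87 for Hdac9. Within families, no ratio called between neighbours changed sign under a pseudocount of 1, the posterior mean or the kallisto-layout table on the mean of both libraries, but in the kallisto-layout table Mef2a and Mef2d were no longer called apart, and Hdac7 and Hdac9 were. With the kallisto-layout table, means moved by more than the SD to 54.4 TPM for Mef2a, 52.8 for Mef2d, 0.109 for Mef2b, 37.5 for Hdac5 and 11.3 for Hdac7; the log2 ratio of Mef2a over Mef2d moved to 0.041, of Mef2c over Mef2b to 7.04 and of Hdac5 over Hdac4 to 1.23. With the posterior mean, Mef2b moved to 0.27 TPM, Hdac7 to 10.455 TPM and Mef2c over Mef2b to 6.15; with a pseudocount of 1 that ratio was 4.51. The cause was not tested. Of the count ratios between libraries, 4 had an interval without 1 by library totals and 7 by TMM or DESeq2 size factors, a check chosen after seeing the data. No member was 2-fold apart between libraries under any scaling, and the detection count was 7 of 8 in the kallisto-layout table.

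Exon and class shares, whose alternatives were chosen after seeing the data, depended more on the estimate. The upstream exon of Mef2a moved to 75.7% (kallisto-layout), 78.6% (posterior mean) and 87.5% (expected counts), that of Mef2c to 45.1%, 38.8% and 55.9%, and that of Mef2d to 92.3% by expected counts. Beta moved to 70.1% and 87.0% in Mef2a, 42.6% and 59.0% in Mef2c and, by expected counts, to 6.86% in Mef2d. Gamma in Mef2c moved to 65.2% and 41.3%, the short form of Hdac9 to 87.2% by expected counts, and retained introns to 36.1% and 19.1% in Hdac5 and to 16.4% and 22.5% in Hdac7. Expected counts weigh transcripts by length. Across all genes the median ratio between libraries was 0.02 on the log2 scale for TPM, 0.06 for library totals, -0.03 for TMM and -0.01 for DESeq2 size factors.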
